A study of Homo sapiens with 6 samples.

Results

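Cells of an epithelium are held together by adherens junctions, tight junctions and desmosomes, and exchange small molecules through gap junctions. The 35 genes described here encode the parts of these junctions and a few of their regulators, and were chosen by name. They are 6 adherens junction genes, 11 tight junction genes, 11 desmosome genes, 2 gap junction genes, and 5 genes for another adhesion molecule, splicing factors, a protease and a trafficking protein. All 35 were found among the 20660 gene names of the deposited table. The gap junction gene GJB2 fell to 3.50 FPKM in BB608-treated cells, against 7.08 FPKM in DMSO-treated cells, and was the only 1 of the 35 that the authors' test called. No adherens junction, tight junction or desmosome gene was called, where 1.06% of genes with a tested sequence were called over the whole table. The log2 fold of the gene sum was 0.10 for CDH1 (E-cadherin), 0.05 for DSP (desmoplakin) and 0.13 for CLDN7, the most abundant claudin. The most abundant coding sequence alone gave -0.21 for CDH1, 0.01 for DSP and -0.03 for CLDN7. For CDH1 and CLDN7 the sign thus depends on which is taken.

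As background, adherens junctions are built on classical cadherins, which bind across the gap between cells and are tied to actin by catenins. Claudins, occludin and related membrane proteins seal tight junctions and are anchored by cytoplasmic scaffolds. Desmosomes use their own cadherins, the desmogleins and desmocollins, and link them through plakoglobin, plakophilins and desmoplakin to keratin filaments. Connexins form the channels of gap junctions, and squamous epithelia express several of them. Loss of E-cadherin and of the epithelial splicing factors is a known mark of a shift towards a mesenchymal state.

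The libraries came from FaDu, an established human cell line derived from a squamous carcinoma of the lower throat, which the labels also call a head and neck squamous cell carcinoma line. Cells of 3 libraries were treated with BB608, a compound known here only by that code name, and those of the other 3 with the vehicle DMSO. The series' design text calls the 3 of each group biological replicates. The sources used here do not give the dose or the duration. Ribosomal RNA was removed from total RNA before a strand-preserving library preparation.

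Levels are the authors' FPKM values, which scale fragment counts by sequence length and library depth. The authors give 1 pooled value per group and coding sequence, so the spread between libraries and their depth are unknown. The deposited data label the groups DMSO_subset and BB608_subset, and what the subset refers to is not known here. That each value pools all 3 libraries of its group is taken from the sample titles and is an assumption. The gene sum adds up the FPKM of every coding sequence listed under a gene name and carries no error of its own. A coding sequence was called where the authors' q was under 0.05, and its error is an SE worked back from their test statistic and p-value (the implied SE). Of 34474 tested coding sequences, 0.354% were called, and by gene the share was 1.06% of 11429 genes with a tested sequence. In a bulk sample of this kind, fewer cells expressing a gene and less RNA per cell cannot be told apart.

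All 10 squamous and epithelial markers were above 1 FPKM, with a summed level of 4628 FPKM in BB608 and 4354 FPKM in DMSO. None of 6 fibroblast markers reached 1 FPKM, with a summed level of 0.865 FPKM in BB608 and 1.01 FPKM in DMSO. Of 5 leukocyte markers, summing to 22.7 FPKM in BB608 and 25.4 FPKM in DMSO, CD14 and CD68 reached 1 FPKM. PTPRC, a marker of leukocytes in general, and CD3E, a marker of T cells, were at or near 0. Of 3 endothelial markers measured CDH5 reached 1 FPKM, at 4.09 FPKM in BB608 and 3.82 FPKM in DMSO. Of the mesenchymal markers FN1 and CDH2 (N-cadherin) passed 1 FPKM, whereas VIM (vimentin) was at 0.108 FPKM in BB608 and 0.0887 FPKM in DMSO.

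**Figure D1:**
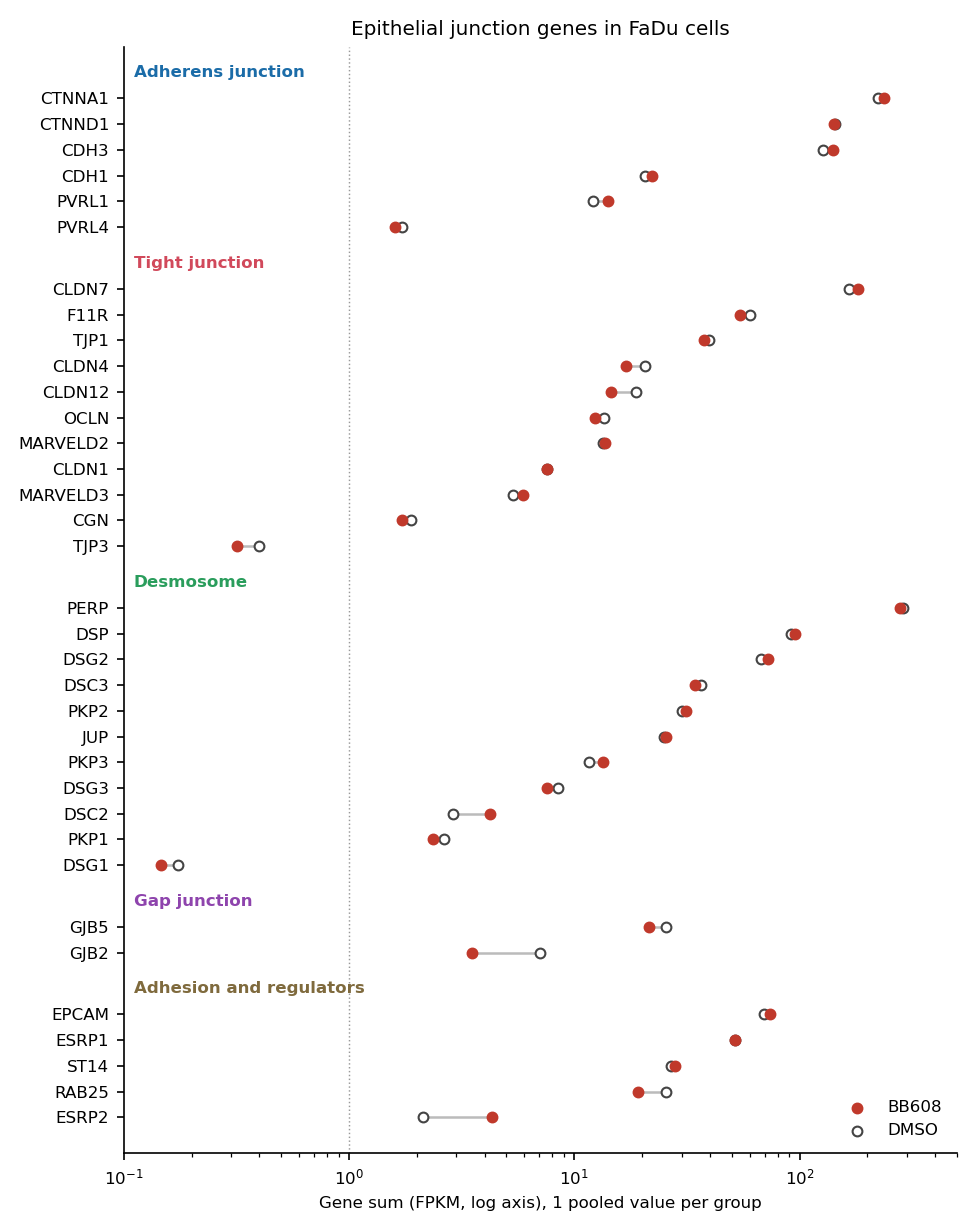
Gene sums of the 35 genes in FPKM on a log axis, with 1 pooled value for BB608 (filled) and 1 for DMSO (open) per gene and a dotted line at 1 FPKM. The paired points nearly coincide for most genes, and the widest gaps are those of GJB2, at 3.50 FPKM in BB608 and 7.08 FPKM in DMSO, and ESRP2, at 4.32 FPKM in BB608 and 2.12 FPKM in DMSO.

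The gap junction gene GJB2 fell in BB608, and GJB5, the other one of the 35, was not called. GJB2 encodes a beta connexin of keratinocytes and of the inner ear, and is annotated at 20761609 to 20767037 on chromosome 13 of hg19. Its single coding sequence stood at 49.4% of the DMSO level, a log2 fold of -1.02 (implied SE 0.13, 95% interval -1.27 to -0.77), and Cuffdiff gave it p = 5e-05 and q = 0.0154 in the authors' deposited table. That p is the smallest the table holds, but GJB2 shares it. The called OVOL1 sequence described below has the same p and q, so the p does not rank GJB2 first. GJB2 was the 1 called among 8 junction genes with a single tested sequence, a class in which 2.28% were called across the table. GJB5, another beta connexin of stratified epithelium, had 21.6 FPKM in BB608 and 25.6 FPKM in DMSO. Its log2 fold of -0.24 had an interval of -0.60 to 0.11 and a p of 0.168 in the authors' deposited table, so neither a lower level nor an equal one is shown.

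None of the other connexin genes examined was called, where 1.06% of genes with a tested sequence were called over the whole table. GJA1, the widely expressed connexin of many tissues, had 5.97 FPKM in BB608 and 6.85 FPKM in DMSO. GJB7 had 1.00 FPKM in BB608 and 1.42 FPKM in DMSO, and GJC1 had 1.09 FPKM in BB608 and 1.397 FPKM in DMSO. All 5 connexins examined that reached 1 FPKM thus had a lower gene sum in BB608, where 42.4% of 10859 genes of that level were lower before any rescaling. All 5 were also lower after quantile normalization. Median scaling lowers every fold by 0.03, so it could not have changed these signs. For GJC1 the 1 tested coding sequence was higher in BB608 while the sum was lower. GJB2 made up 10.6% of the summed level of these 5 genes in BB608 and 16.7% in DMSO, and the sum itself was 33.1 FPKM in BB608 and 42.3 FPKM in DMSO. In the order of levels GJB2 stood below GJA1 in BB608 and above it in DMSO, a pair whose values in DMSO differ by little. GJC1 stood above GJB7 in BB608 and below it in DMSO, also by small margins. GJB6, the neighbour of GJB2 on chromosome 13, was listed at 0.0350 FPKM in BB608 and 0.122 FPKM in DMSO and was not tested.

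**Figure D2:**
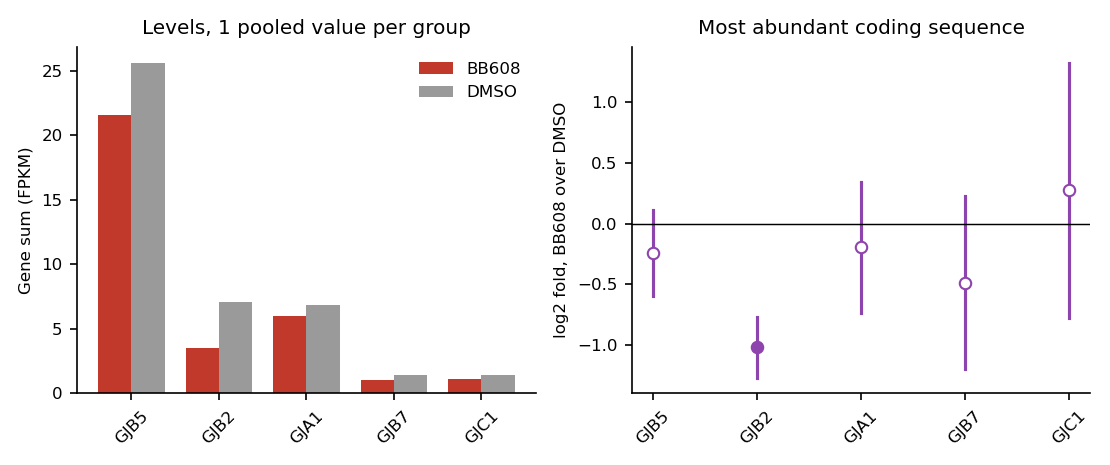
Left, gene sums in FPKM of the 5 connexin genes examined that reached 1 FPKM, with BB608 bars left of DMSO bars (1 pooled value per group, so no error bars). Right, log2 fold of each gene's most abundant tested coding sequence with the 95% interval from the implied SE, filled where called: GJB2 lies at -1.02 and the interval of each of the other 4 includes 0.

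The promoter of GJB2 is shown because it is the called gene, and that of the claudin gene CLDN4 because CLDN4 had the next lowest p. Both are the 250 bases before the RefSeq start (GRCh38.p14), written 5′ to 3′ on the gene's strand. The GJB2 window is chr13:20192939-20193188 on the minus strand and the CLDN4 window is chr7:73830746-73830995 on the plus strand. Capitals mark matches, on either strand, to a GC box (GGGCGG), an E-box of the kind bound by Snail factors (CACCTG) or an AP-1 site (TGANTCA). The search ran to 50 bases after the start, and the last GJB2 match runs 1 base past the part printed.
GJB2: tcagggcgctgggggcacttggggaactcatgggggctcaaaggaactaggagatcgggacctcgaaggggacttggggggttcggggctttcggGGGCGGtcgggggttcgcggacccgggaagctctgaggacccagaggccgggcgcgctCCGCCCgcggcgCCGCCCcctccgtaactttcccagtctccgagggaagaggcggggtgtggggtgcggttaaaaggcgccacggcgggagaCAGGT
CLDN4: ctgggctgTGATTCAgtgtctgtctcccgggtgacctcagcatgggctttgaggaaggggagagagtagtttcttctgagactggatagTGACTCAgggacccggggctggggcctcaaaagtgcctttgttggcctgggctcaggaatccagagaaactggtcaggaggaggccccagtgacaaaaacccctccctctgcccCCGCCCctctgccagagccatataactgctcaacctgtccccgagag

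With positions counted from the start, GJB2 had 3 GC boxes, beginning at -155, -97 and -85, and an E-box match from -5 to 1, but no AP-1 match. CLDN4 had 2 AP-1 matches, beginning at -242 and -161, and a GC box at -47. Over the 300 bases searched, of which the last 50 follow the start and are not printed, the GJB2 promoter was 71.67% G and C, against a median of 58.7% over 35116 RefSeq windows of that length. A GC box was found in 44.95% of those windows, the E-box in 20.6% and the AP-1 site in 7.71%. RefSeq windows were matched for 22 of the 35 junction genes, 33 windows in all, of which 22 held a GC box, 13 the E-box and 2 the AP-1 site (CLDN4 and PERP). These motifs were picked with the expression values known, and a match shows letters, not binding.

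Adherens junction genes stayed uncalled in all 37 tested coding sequences, where 0.354% were called over the whole table. At that share a list of this size would most often hold no call. CDH1, which encodes E-cadherin, had a gene sum of 22.1 FPKM in BB608 and 20.6 FPKM in DMSO. CDH3 (P-cadherin), which lies next to CDH1 on chromosome 16, was the more abundant cadherin, at 141 FPKM in BB608 and 127 FPKM in DMSO, or 6.36 and 6.18 times the CDH1 level in the same group. The catenins were more abundant still. CTNNA1, the alpha-catenin that links cadherin complexes to actin, had 237 FPKM in BB608 and 223 FPKM in DMSO, and CTNND1, the delta-catenin that stabilises cadherins at the surface, had 142 FPKM in BB608 and 143 FPKM in DMSO. The CTNND1 rows share a gene ID in the table with TMX2 and other genes. Nectins are immunoglobulin-like adhesion molecules of the same junction. PVRL1 (nectin-1) had 14.1 FPKM in BB608 and 12.1 FPKM in DMSO, and PVRL4 (nectin-4) was low, at 1.60 FPKM in BB608 and 1.72 FPKM in DMSO. The order of these 6 levels was the same in both groups. Their median log2 fold was 0.09, where that of all 10859 kept genes was 0.03, and it turned to -0.03 with the most abundant sequence in place of the sum.

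Within adherens junction genes the table split the signal among many coding sequences, and their folds scattered around 0. Of 4 tested CDH1 sequences the most abundant had 7.37 FPKM in BB608 and 8.51 FPKM in DMSO, whereas the next had 8.47 FPKM in BB608 and 6.22 FPKM in DMSO, with p of 0.371 and 0.13 in the authors' deposited table. All 8 tested CDH3 sequences passed 1 FPKM, with log2 folds from -0.36 to 0.50, and 7 were higher in BB608. CTNND1 had 8 such sequences with folds from -0.28 to 0.48, 4 on either side of 0. The widest range was in CTNNA1, whose 13 tested sequences of at least 1 FPKM ran from -1.89 to 2.33 with implied SEs of up to 3.05. None of these sequences was called, and the division of reads among overlapping sequences is uncertain.

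Tight junction genes were called in none of 30 tested sequences, where 0.354% were called over the whole table. Of the 30, 2 had an unadjusted p under 0.05, where the share over the whole table was 3.31%. CLDN7 was the most abundant claudin, at 183 FPKM in BB608 and 166 FPKM in DMSO. The rows of CLDN7, and those of CLDN12 and F11R, share a gene ID in the table with other genes. The main CLDN7 sequence, at 132 FPKM in BB608 and 134 FPKM in DMSO, had a log2 fold of -0.03 (implied SE 0.16), so the higher sum came mainly from a lesser sequence at 28.9 FPKM in BB608 and 13.8 FPKM in DMSO, with a p of 0.289 in the authors' deposited table. CLDN4, a sealing claudin with a single coding sequence, had 17.0 FPKM in BB608 and 20.6 FPKM in DMSO. Its log2 fold of -0.28 (implied SE 0.11) was not called, since the authors' deposited table gives it p = 0.00905 and q = 0.843. CLDN12 had 14.5 FPKM in BB608 and 18.8 FPKM in DMSO, and CLDN1, needed for the barrier of the epidermis, 7.57 FPKM in BB608 and 7.59 FPKM in DMSO. The interval of the CLDN1 log2 fold ran from -0.22 to 0.21. Most of the CLDN12 difference lay in 1 sequence, at 1.41 FPKM in BB608 and 4.55 FPKM in DMSO, with a p of 0.211 in the authors' deposited table. None of the other 17 claudin genes looked up reached 1 FPKM in either group.

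Of the other tight junction membrane proteins, F11R (junctional adhesion molecule A) had 54.6 FPKM in BB608 and 60.3 FPKM in DMSO. Its 2 main sequences had log2 folds of 0.11 and -0.02, and the lower sum came from another sequence at 1.47 FPKM in BB608 and 9.40 FPKM in DMSO, with a p of 0.246 in the authors' deposited table. OCLN (occludin) had 12.4 FPKM in BB608 and 13.5 FPKM in DMSO. MARVELD2 (tricellulin, found where 3 cells meet) had 13.7 FPKM in BB608 and 13.3 FPKM in DMSO, and its relative MARVELD3 had 5.90 FPKM in BB608 and 5.37 FPKM in DMSO. OCLN and MARVELD2 were the only pair of tight junction genes whose order differed between the groups, and their levels lay close together in both.

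Among the scaffolds, TJP1 had 37.7 FPKM in BB608 and 39.8 FPKM in DMSO, CGN (cingulin) had 1.72 FPKM in BB608 and 1.89 FPKM in DMSO, and TJP3 was under 1 FPKM in both groups and had no tested sequence. The most abundant TJP1 sequence had 13.2 FPKM in BB608 and 9.81 FPKM in DMSO, a log2 fold of 0.42 (implied SE 0.21) for which the authors' deposited table gives p = 0.0429 and q = 0.997. The 5 tested TJP1 sequences had log2 folds from -0.66 to 0.42, and the TJP1 gene sum had -0.08, so the sign depends on which is taken. A further TJP1 sequence was listed at 0 in BB608 and at 3.51 FPKM in DMSO and was not tested by the authors. The median log2 fold of the 10 tight junction genes of at least 1 FPKM was -0.10, with 3 higher and 7 lower. With untested sequences left out of the sums it turned to 0.02.

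Desmosome genes were called in none of 20 tested sequences, where 0.354% were called over the whole table. Several desmosome genes had narrow intervals. PERP, a p53- and p63-regulated membrane protein of desmosomes, was the most abundant of the 35 genes, at 280 FPKM in BB608 and 288 FPKM in DMSO. Its single sequence had a log2 fold of -0.04 with an interval of -0.22 to 0.14. DSP, which encodes desmoplakin, the link to keratin filaments, had 95.03 FPKM in BB608 and 91.5 FPKM in DMSO, and the interval of its main sequence ran from -0.21 to 0.23. JUP (plakoglobin, shared with adherens junctions) had 25.6 FPKM in BB608 and 25.0 FPKM in DMSO, and its rows share a gene ID in the table with the keratin gene KRT17. The plakophilins followed the order PKP2, PKP3, PKP1 in both groups. PKP2 had 31.4 FPKM in BB608 and 30.02 FPKM in DMSO, PKP3 13.4 FPKM in BB608 and 11.6 FPKM in DMSO, and PKP1, known from stratified epithelia, 2.36 FPKM in BB608 and 2.64 FPKM in DMSO. The 2 PKP2 sequences had log2 folds of 0.47 and -0.38, which nearly cancel in the sum. The PKP3 sum was higher in BB608, but its most abundant sequence had a log2 fold of -0.18 (implied SE 0.79).

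The desmosomal cadherin genes lie side by side on chromosome 18, between 28569974 and 29136874 of hg19, yet spanned a wide range of levels. DSG2 (desmoglein-2) had 72.1 FPKM in BB608 and 67.3 FPKM in DMSO. DSC3 (desmocollin-3) had 34.3 FPKM in BB608 and 36.4 FPKM in DMSO, and DSG3, the pemphigus vulgaris antigen, 7.56 FPKM in BB608 and 8.44 FPKM in DMSO. DSC2 had 4.22 FPKM in BB608 and 2.89 FPKM in DMSO. DSG1, which marks differentiated epidermal layers, was at 0.146 FPKM in BB608 and 0.174 FPKM in DMSO, and DSC1 and DSG4 were under 1 FPKM as well. DSC2 had the largest log2 fold of the desmosome genes, 0.55 for the sum. Its main sequence, at 2.58 FPKM in BB608 and 1.48 FPKM in DMSO, had a log2 fold of 0.80 (implied SE 0.37) for which the authors' deposited table gives p = 0.0332 and q = 0.997. DSC3 remained the more abundant desmocollin, at 8.13 times the DSC2 level in BB608 and 12.6 times in DMSO. The median log2 fold over the 10 desmosome genes of at least 1 FPKM was 0.05, and -0.01 by the most abundant sequence.

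The adhesion molecule and regulators gave no call among 14 tested sequences, where 0.354% were called over the whole table. EPCAM, the epithelial cell adhesion molecule, had 73.7 FPKM in BB608 and 69.8 FPKM in DMSO. ST14 (matriptase, a membrane serine protease of epithelia) had 28.1 FPKM in BB608 and 26.8 FPKM in DMSO, with an interval of -0.14 to 0.25 for its main sequence. RAB25, a small GTPase of recycling vesicles in epithelial cells, had 19.2 FPKM in BB608 and 25.5 FPKM in DMSO, a log2 fold of -0.41 whose interval, from -1.32 to 0.51, was wide for a gene of this level. The epithelial splicing factor ESRP1 had 51.5 FPKM in BB608 and 51.7 FPKM in DMSO. Its 6 tested sequences had log2 folds from -0.24 to 0.79, of which the highest had a p of 0.0862 in the authors' deposited table. Its paralogue ESRP2 had 4.32 FPKM in BB608 and 2.12 FPKM in DMSO, a log2 fold of 1.03 for the sum, the largest positive one of the 35 genes. That value rests on imprecise sequences. The main ESRP2 sequence had 0.67 with an implied SE of 0.97, and another was listed at 0.952 FPKM in BB608 and next to 0 in DMSO, with a p of 0.0555 in the authors' deposited table.

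**Figure D3:**
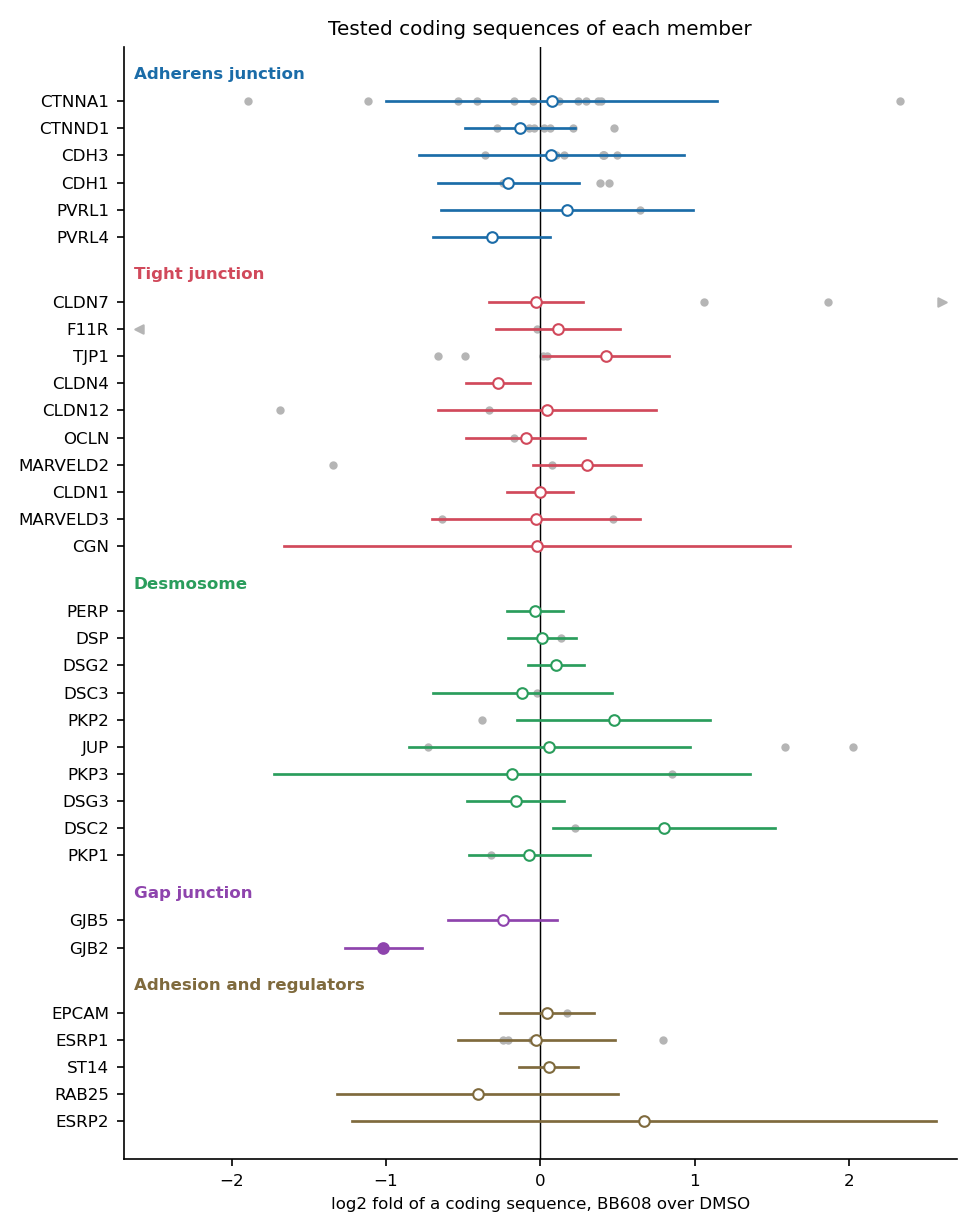
Log2 fold of BB608 over DMSO for the tested coding sequences of 33 junction genes. Large circles are each gene's most abundant sequence with its 95% interval from the implied SE, filled where called, small grey points are other tested sequences of at least 1 FPKM, and arrowheads are 2 sequences beyond the axis (CLDN7 at 9.58, F11R at -2.68). GJB2 is the only filled circle, and the intervals of CLDN4, TJP1 and DSC2 also leave out 0.

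Across all 35 genes, 103 coding sequences were tested and 1 was called, or 0.971%, where the share over the whole table was 0.354%. By gene that was 1 of 33, or 3.03%, where the share over the whole table was 1.06%. Both shares of the junction genes rest on 1 call. At an unadjusted p under 0.05 there were 4 sequences, or 3.88%, where the share over the whole table was 3.31%. Of the 33 genes of at least 1 FPKM, 16 were higher and 17 lower in BB608, with a median log2 fold of 0.00, and 57.6% of all genes of that level were higher. The summed level of all 35 was 1674 FPKM in BB608 and 1648 FPKM in DMSO. For 25 of the 33 the interval of the most abundant sequence lay within 1 log2 of 0, and for 12 within 0.5 log2. The intervals of the other 8, GJB2 among them, reached beyond 1 log2.

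A further 93 genes of junctions, polarity complexes and epithelial transcription factors were looked up by name, of which 55 had a tested sequence. Of these, 2 were called, or 3.64%, where the share over all genes was 1.06%. The lists were drawn up with earlier results of these data known, so the higher share cannot be read as an excess. Both called genes encode transcription factors and both fell, and 59.8% of the 122 called sequences of the whole table were lower in BB608. SNAI1 encodes Snail, a repressor that binds E-boxes and is known to silence CDH1. It fell to 3.11 FPKM in BB608, against 5.20 FPKM in DMSO, a log2 fold of -0.74 (implied SE 0.19) for which the authors' deposited table gives p = 1e-04 and q = 0.029. OVOL1, a zinc finger factor of epidermal differentiation, fell to a gene sum of 1.96 FPKM in BB608, against 6.73 FPKM in DMSO, with a called log2 fold of -1.96 for 1 of its 2 sequences in the authors' deposited table. SNAI2 (Slug), related to SNAI1, had 16.2 FPKM in BB608 and 19.7 FPKM in DMSO, for which the authors' deposited table gives p = 0.00635 and q = 0.715. ZEB1 and ZEB2, repressors of the same promoter, were under 1 FPKM in both groups. ELF3, an epithelial Ets factor, had 54.8 FPKM in BB608 and 59.6 FPKM in DMSO, and was the most abundant factor of the list by the mean of both groups and in DMSO. In BB608 it stood below GRHL2, which had 57.9 FPKM in BB608 and 39.0 FPKM in DMSO and was not called. GRHL1, a grainyhead-like factor of epithelia, had 3.07 FPKM in BB608 and 1.59 FPKM in DMSO, with a lowest p of 0.13 in the authors' deposited table. Its 2 tested sequences went opposite ways, with log2 folds of 2.08 and -1.40.

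No gene was called among the other junction and polarity genes, where 1.06% of genes with a tested sequence were called over the whole table. CTNNB1 (beta-catenin) had 130 FPKM in BB608 and 135 FPKM in DMSO. LSR, a protein of contacts between 3 cells, had 34.0 FPKM in BB608 and 29.8 FPKM in DMSO, and the desmosomal plakin PPL (periplakin) had 47.0 FPKM in BB608 and 41.4 FPKM in DMSO. SPINT2, an inhibitor of matriptase, had 466 FPKM in BB608 and 459 FPKM in DMSO. The polarity scaffold DLG1 had 76.2 FPKM in BB608 and 62.5 FPKM in DMSO. An unadjusted p under 0.05 occurred in SCRIB, another polarity scaffold, with 1 sequence at 3.85 FPKM in BB608 and 0.811 FPKM in DMSO, and in CXADR, a virus receptor of tight junctions, with 1 sequence at 1.28 FPKM in BB608 and next to 0 in DMSO. PANX1, a channel protein related in topology to connexins, had 1 sequence at 6.49 FPKM in BB608 and 8.23 FPKM in DMSO and another at 1.09 FPKM in BB608 and 0.142 FPKM in DMSO. Their p-values in the authors' deposited table were 0.0404 for SCRIB, 0.0445 for CXADR, and 0.0367 and 0.0431 for PANX1, each with a q of 0.997. Of the 4 tested SCRIB sequences 1 was lower in BB608, at 0.00236 FPKM in BB608 and 1.37 FPKM in DMSO. The authors' deposited table gives that sequence a p of 0.198. The SCRIB gene sum was 10.5 FPKM in BB608 and 5.86 FPKM in DMSO.

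**Figure D4:**
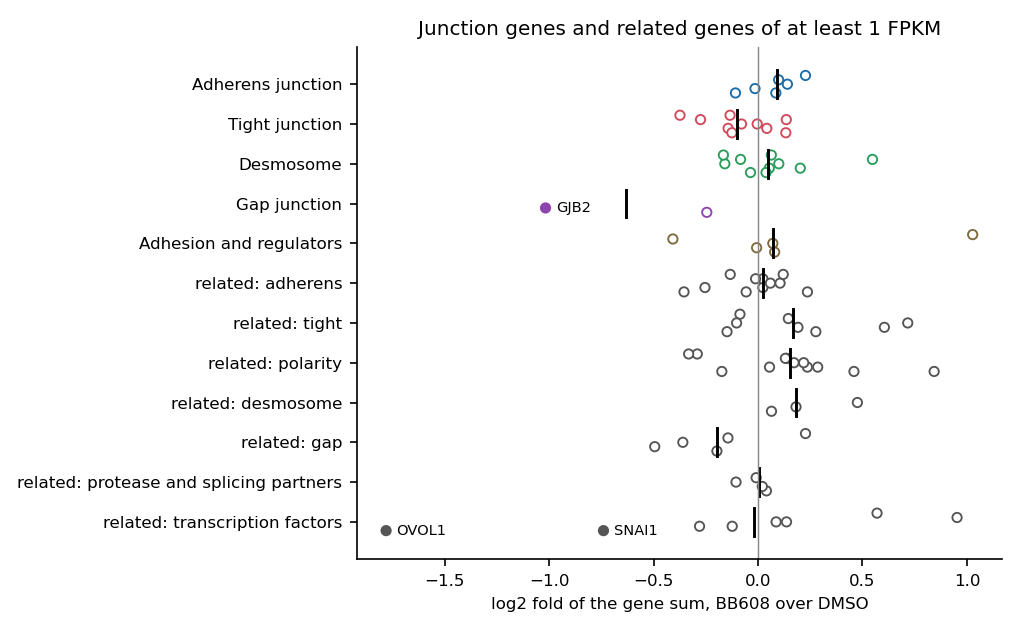
Log2 fold of the gene sum, BB608 over DMSO, for genes of at least 1 FPKM with a tested sequence, in rows by role, the 5 rows of the junction genes in colour and 7 rows of related genes in grey. Vertical bars are row medians and filled points are genes with a called sequence, which are GJB2, SNAI1 and OVOL1, all lower in BB608, as were 59.8% of the called sequences of the whole table.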

How the data were processed

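The table analysed holds the authors' own comparison of BB608 with DMSO, 82428 coding sequences of 20660 gene names. Per the submitters' processing notes, TopHat2 2.0.11, Cufflinks 2.2.1, Cuffdiff and build hg19 were used. The sources used here do not name the annotation. The authors deposited 1 FPKM value per group and sequence, a log2 fold, a p-value, a q-value and a test statistic, which is a score. No value per library was available for use, so no test of fit across libraries was run, and the foreseen alternative in limma does not apply. The deposited log2 fold matched the log2 ratio of the FPKM columns to within 4.72e-05, and q matched a Benjamini-Hochberg adjustment over tested sequences to within 5.23e-07.

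FPKM were summed per gene name. Genes were kept with a tested sequence, no failed row and 1 FPKM in the higher group, which left 10859. The implied SE is the absolute fold over the statistic, divided by 1.73, the median ratio of the normal quantile of p to the statistic. Sequences at or under 0.001 FPKM in a group got none, and it covers only the spread of the authors' model. Locus starts were raised by 1, since Cufflinks counts them from 0. Python 3.11.15, pandas 2.3.3 and scipy 1.17.1 were used. The genes, lists, motifs and tests were chosen with earlier results of these data known. All 35 genes are reported, with their most abundant tested sequence and any at an unadjusted p under 0.05. Of the related genes, those with a call, with such a p, with the 4 largest folds or with the highest level per role are named, and GJA1, GJB7, GJC1, GJB6, ZEB1, ZEB2, GRHL2, QKI, RBFOX2 and CDH2 were added after their values were seen. Some genes of the related lists are not reported here.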

Additional observations from a re-analysis of the deposited data

How the results depend on the processing

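The count of 1 called junction gene, GJB2, was also 1 with normal p-values from the statistic, with a mean of at least 1 or 5 FPKM, and with a log2 fold bound of 1. The fold bound was applied to the same q, so it could only keep or drop the call, and GJB2 passed it narrowly at -1.02. The normal p-values were scaled to the authors' own, so they are not a separate test. An unadjusted p under 0.05, chosen after seeing the data, gave 4 genes (GJB2, CLDN4, TJP1 and DSC2) by its own construction. Of 165 alternative log2 folds over 33 genes, 155 differed from the gene sum by less than 1 implied SE of the gene's most abundant sequence. The other 10 moved further, 8 of them with the most abundant sequence in place of the sum. Part of the 155 could not have moved further. Median scaling shifts folds by less than the lowest implied SE of 0.09, and 7 genes have 1 row and so no choice of sequence. In 10 uncalled cases the sign changed. The GJB2 log2 fold was -0.84 with a pseudocount of 1 FPKM, which understates folds of low genes, and -1.05 and -1.07 after median scaling and quantile normalization. All 42 alternative medians by role stayed within 0.21 log2 of the reported one, the median implied SE, and 5 changed sign near 0. That bound is the error of a single sequence and exceeds the size of every reported median but that of the gap junction genes. It is therefore a loose check that does not show the medians to be stable. Median scaling shifts every fold by 0.03.

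No paired analysis was possible because each group has a single value, pooled by the authors. Leaving out each library was not run for the same reason. Depth is unknown, and precision for genes with several overlapping sequences is limited by how reads were divided among them.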

Other observations

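Some values stand outside the comparisons above. CDH2 (N-cadherin) had 8.55 FPKM in BB608 and 8.42 FPKM in DMSO, beside a CDH1 level of 22.1 FPKM in BB608 and 20.6 FPKM in DMSO. The splicing regulators QKI and RBFOX2, which act on some of the same exons as ESRP1, had 62.7 and 21.7 FPKM in BB608 and 63.1 and 23.3 FPKM in DMSO.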
